A study of Mus musculus with 13 samples.

Results

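The integrin and laminin subunits comprised 36 listed genes, 26 integrin subunits and 10 laminin chains, out of 20270 genes in the deposited expression tables of mouse lung. The members were chosen by gene symbol, all 36 were found in the tables, and all 36 passed the filter on low counts and were tested. RNA came from the lower right lobe of mice in 13 libraries, counted as 1 library per mouse. The labels give WT bleomycin replicates 4 and 4-B2 the same number and do not say what B2 stands for; the study's lung function table holds a separate entry for each, with different measurements. The 4 control mice were male C57BL/6J given the saline vehicle, and the 5 WT bleomycin mice were male C57BL/6J given a single oropharyngeal dose of bleomycin at 1 U per kg, a drug that injures the alveolar epithelium and leaves a fibrotic lung. The C57BL/6J mice were bought at 13 weeks of age. The 4 CB1R KO bleomycin mice lacked the cannabinoid receptor gene Cnr1 throughout the body (Cnr1-/-) on a C57BL/6J background and received the same dose; their age was not given in the sources used here. All bleomycin lungs were taken at day 14. No CB1R KO lung without bleomycin was analysed here, so genotype and bleomycin cannot be told apart where CB1R KO bleomycin lungs are set against control. For the same reason, a difference between the bleomycin groups cannot be divided into one present before bleomycin and a changed response to it.

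Integrins are receptors built of 1 alpha and 1 beta subunit that span the cell membrane, bind matrix proteins or ligands on other cells, and connect them to the actin skeleton. Laminins are trimers of 1 alpha, 1 beta and 1 gamma chain that form the backbone of basement membranes, the thin matrix sheets under epithelium and endothelium and around smooth muscle. In the lung, integrins hold alveolar cells on their basement membrane, and those that pair the subunit encoded by Itgav with the products of Itgb6 or Itgb8 release active TGF-beta from its latent complex. Leukocytes carry integrins of their own, which serve adhesion to endothelium and epithelium and are described apart from the others below.

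A pair of alpha subunits that bind the same tripeptide motif (RGD) in matrix proteins changed in opposite directions in WT bleomycin lungs, Itga5 upwards and Itga8 downwards. The 250 bases before their RefSeq transcription start are therefore shown, 5′ to 3′ on the strand of the gene, with capitals marking each match to GAGGAA, the core of the motif of the myeloid factor PU.1, read on either strand. The windows come from RefSeq on GRCm38.p6, a build other than that of the expression tables, at chr15:103366792-103367041 (minus strand) for Itga5 and chr2:12301945-12302194 (minus strand) for Itga8. The final bases of each RefSeq entry, past the stretch shown, were sought in annotated transcripts of the gene. They were found in 0 transcripts of Itga5 and 2 of Itga8, so the start site used for Itga5 is uncertain.
Itga5: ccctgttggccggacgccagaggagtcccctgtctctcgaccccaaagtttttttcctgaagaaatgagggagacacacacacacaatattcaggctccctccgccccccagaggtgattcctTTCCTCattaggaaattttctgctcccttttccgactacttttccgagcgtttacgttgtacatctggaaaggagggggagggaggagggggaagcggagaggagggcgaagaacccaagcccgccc
Itga8: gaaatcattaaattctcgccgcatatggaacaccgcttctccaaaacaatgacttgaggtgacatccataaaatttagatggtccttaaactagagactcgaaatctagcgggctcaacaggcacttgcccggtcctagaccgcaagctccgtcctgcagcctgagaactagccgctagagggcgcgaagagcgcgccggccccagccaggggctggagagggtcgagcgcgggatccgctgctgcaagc
The windows of Itgav, which rose in WT bleomycin lungs, and Itga2b, which fell, each held 2 matches, the Itga5 window held 1 and the Itga8 window none. Across the 26 windows found for 23 of the 36 members, 13 windows (50.0%) held GAGGAA, against 23.3% of the 32851 windows of the whole table. The leukocyte integrins had 3 of the member windows, of which 1 (33.3%) held GAGGAA. The AP-1 motif TGANTCA was found in 1 member window (3.85%, against 6.75% of all windows) and the TEAD motif CATTCC in 3 (11.5%, against 12.6%). These are matches of letters in windows of equal length, without a test, and no binding was measured.

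Of the 13 libraries, 12 had a total of 14615904 to 16662580 estimated counts. The total of CB1R KO replicate 11 was 53463884, 3.33 times the median of the others. The targeted gene Cnr1 lay between 1.62 and 4.18 CPM (counts scaled to library size) in control, between 3.42 and 7.07 CPM in WT bleomycin and between 2.47 and 5.64 CPM in the libraries labelled CB1R KO bleomycin. The tables do not say which part of Cnr1 these reads cover, so the values do not check the genotype. The labelled tissue was checked on type II cell markers, the surfactant-making cells of the alveolus: all 6 were present, and their summed level was 23750 to 44430 TPM over the 13 libraries. Levels are given in TPM (transcript counts scaled to transcript length and library size, so that genes can be compared), in the library order control 3, 21, 24 and 26, WT bleomycin 4, 2, 5, 4-B2 and 7, and CB1R KO bleomycin 8, 9, 10 and 11. Differences are log2 fold changes of TMM-normalized counts with their standard error (SE), and a gene was called at an adjusted p under 0.05 by the quasi-likelihood test of edgeR, adjusted after Benjamini and Hochberg over the 15315 genes tested.

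With bleomycin in WT lungs, 20 members rose, 6 fell and 10 did not pass the test. Over all genes tested, 48.9% were called in this comparison, 25.0% higher and 23.9% lower, and the members' median log2 fold change was 0.38 against -0.01 for all genes. The members that rose included 6 of 10 laminin chains and 14 of 26 integrin subunits. On normalized counts, the libraries of the WT bleomycin and control groups did not overlap for 25 members, 20 above and 5 below control, where 40.3% of all genes tested did not overlap, 21.5% above and 18.8% below. These are libraries of unsorted tissue from the lower right lobe, in which fewer cells of a type and less RNA per cell cannot be told apart.

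**Figure D1:**
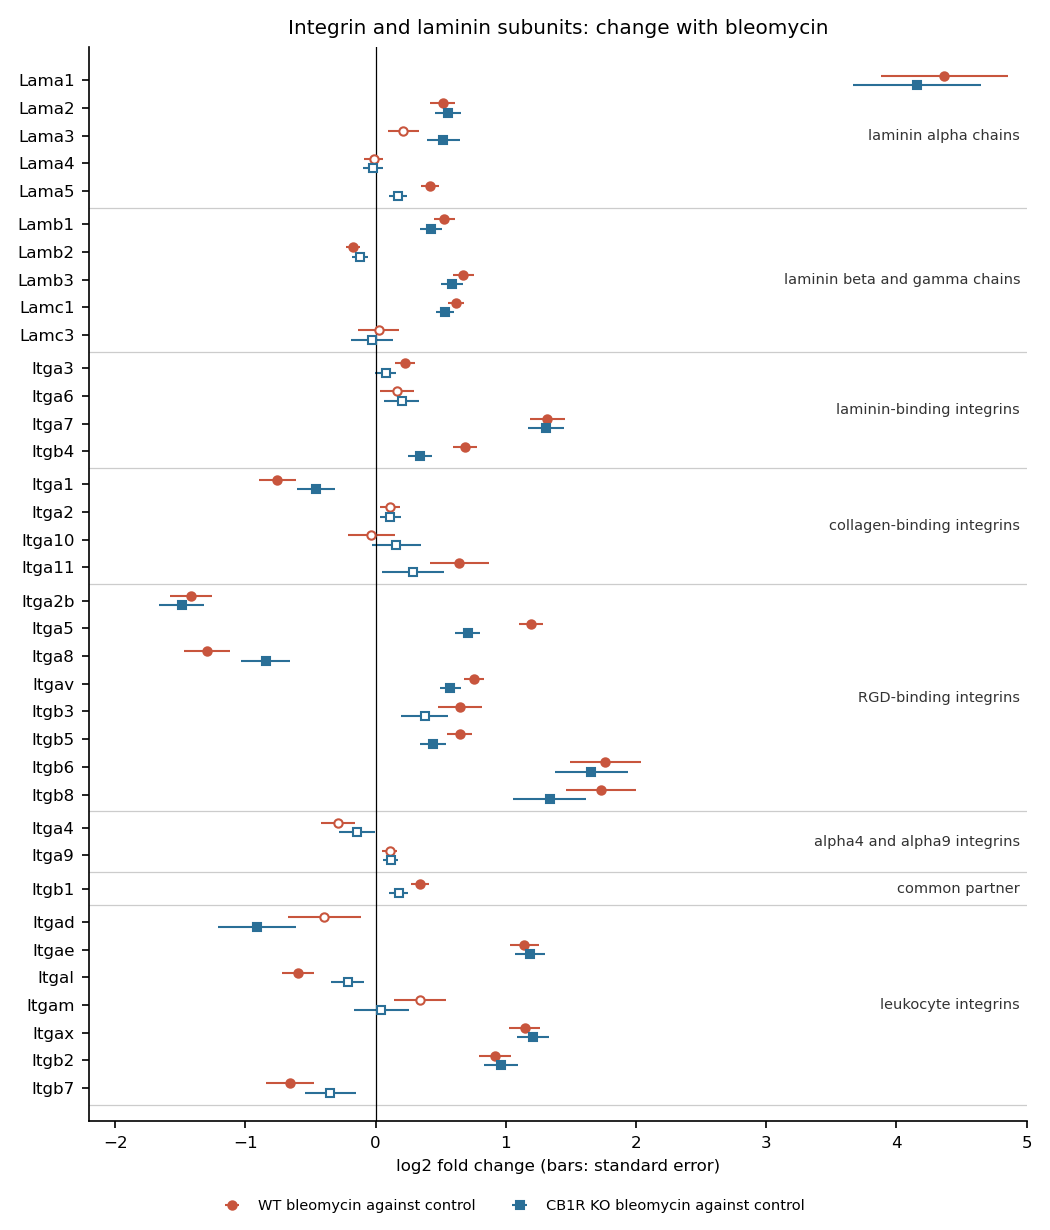
Log2 fold change (horizontal axis) of each of the 36 members in WT bleomycin (circles) and CB1R KO bleomycin (squares) lungs, each against the same 4 control libraries, ordered by class. Bars are SE and filled symbols passed an adjusted p of 0.05. Lama1 lies far to the right in both, at 4.37 and 4.16, and Itga2b farthest to the left, at -1.42 and -1.49.

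Among the laminin alpha chains, which carry the sites that integrins bind, Lama1 rose by far the most. Lama1, the chain of embryonic and early epithelial basement membranes, is named here after its values were seen. Its level was 0.580, 0.377, 0.527 and 0.390 TPM in control, 11.8, 10.9, 7.97, 12.96 and 5.95 TPM in WT bleomycin, and 4.15, 3.24, 14.5 and 13.2 TPM in CB1R KO bleomycin. Every bleomycin library lay above every control library, and CB1R KO libraries 8 and 9 lay below all WT bleomycin libraries while libraries 10 and 11 lay above them. The log2 fold change was 4.37 ± 0.49 (SE) in WT bleomycin lungs (adjusted p = 6.3e-06) and 4.16 ± 0.49 in CB1R KO bleomycin lungs (adjusted p = 2.8e-05); with limma on log2(TPM + 1) these were 2.85 and 2.51. Even so, Lama1 stayed the rarest alpha chain after bleomycin, at 5.55% ± 1.73 (SD, n = 5) of the summed alpha chain TPM in WT bleomycin against 0.334% ± 0.059 (SD, n = 4) in control.

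The other alpha chains changed less. Lama5, the widespread chain of mature epithelial and endothelial basement membranes and the alpha chain with the highest mean TPM, stood at 44.6, 43.8, 42.5 and 38.4 TPM in control, 54.7, 54.8, 63.1, 55.3 and 61.3 TPM in WT bleomycin and 52.5, 50.9, 49.0 and 49.5 TPM in CB1R KO bleomycin. The 3 groups did not overlap, with CB1R KO bleomycin in between, and the rise in WT lungs passed the test at a log2 fold change of 0.42 ± 0.07 (adjusted p = 1.3e-04). Lama2, the chain of muscle and mesenchymal basement membranes, also rose, by 0.52 ± 0.10 (adjusted p = 5.3e-04). Lama3, the chain that anchors epithelium through hemidesmosomes, had a log2 fold change of 0.21 ± 0.12 in WT lungs (adjusted p = 0.16). Lama4, the chain of vessel walls, had one of -0.01 ± 0.07 (adjusted p = 0.88), and its share of the alpha chain pool was 20.5% ± 1.6 in WT bleomycin against 25.9% ± 1.0 in control, as the pool grew from 139.7 ± 7.4 to 179.6 ± 5.9 TPM (SD).

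**Figure D2:**
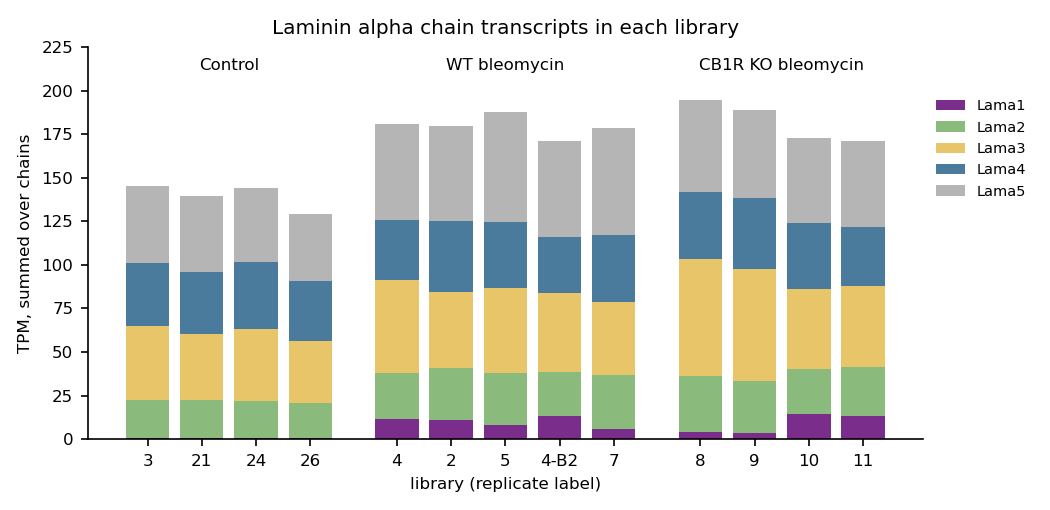
Stacked TPM (vertical axis) of the 5 laminin alpha chains in each of the 13 libraries (horizontal axis, replicate label). The summed level lay between 129.2 and 145.5 TPM in control and between 171.0 and 194.4 TPM in all bleomycin libraries, and the Lama1 segment is visible in bleomycin libraries only.

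The beta and gamma chains, which complete the trimer, rose in 3 of 5 cases and fell in 1, where 25.0% of all genes tested were called higher and 23.9% lower. Lamc1, the gamma chain of most laminins, was at 56.8, 59.5, 61.6 and 57.7 TPM in control, 85.2, 97.1, 93.8, 86.4 and 99.1 TPM in WT bleomycin and 92.8, 90.8, 89.7 and 88.8 TPM in CB1R KO bleomycin. Both bleomycin groups lay wholly above control and overlapped each other, and the log2 fold change was 0.62 ± 0.06 in WT lungs (adjusted p = 3.1e-06). Lamb3, the beta partner of Lama3 in epithelial anchoring laminin, rose by 0.67 ± 0.08 (adjusted p = 1.1e-05) and Lamb1, a beta chain of many laminins, by 0.53 ± 0.08 (adjusted p = 8.1e-05).

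Lamb2, the beta chain of mature vascular and muscular basement membranes, had the highest mean TPM of the laminin chains. It stood at 97.5, 93.2, 99.6 and 98.2 TPM in control, 87.2, 94.8, 94.6, 84.1 and 94.6 TPM in WT bleomycin and 100.3, 101, 92.2 and 107 TPM in CB1R KO bleomycin, and the groups overlapped on this scale. On normalized counts it fell by 0.17 on the log2 scale (SE 0.06, adjusted p = 0.019) in WT lungs with no overlap, a call that was lost with limma on log2(TPM + 1) (adjusted p = 0.19), without control replicate 26 (adjusted p = 0.059) and without WT bleomycin replicate 4-B2 (adjusted p = 0.052). Its share of the beta chain TPM was 36.1% ± 1.2 in WT bleomycin against 48.4% ± 1.4 in control, while that of Lamb3 was 35.0% ± 2.0 against 26.8% ± 1.7 (SD). Lamc3, a gamma chain of restricted tissues, had a log2 fold change of 0.02 ± 0.16 (adjusted p = 0.91).

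The laminin-binding integrins, which pair mainly with Itgb1 or, for Itga6, with Itgb4, rose in 3 of 4 cases. The share called higher over all genes tested was 25.0%. Itga7, the laminin receptor of muscle cells, was at 10.4, 9.55, 5.88 and 6.95 TPM in control, 22.7, 23.4, 18.8, 21.8 and 19.5 TPM in WT bleomycin and 17.9, 23.3, 21.8 and 22.3 TPM in CB1R KO bleomycin. All bleomycin libraries lay above all controls, and the log2 fold change was 1.32 ± 0.13 (adjusted p = 2.9e-06) in WT lungs. The 6 markers of smooth muscle and pericytes summed to 366 to 441 TPM in control, 384 to 635 TPM in WT bleomycin and 369 to 460 TPM in CB1R KO bleomycin, overlapping ranges, with 2 of 6 called higher and 1 lower in WT bleomycin. The 5 cardiac muscle markers, of the muscle sleeve of pulmonary veins, summed to 539.6 to 1313 TPM in control and 99.79 to 393.4 TPM in WT bleomycin, with 5 of 5 called lower. The part of either cell type in the result was not tested.

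Itgb4, the hemidesmosome subunit of basal and alveolar epithelium, was at 7.73, 7.70, 6.92 and 7.81 TPM in control and 11.3, 12.02, 12.4, 14.9 and 11.9 TPM in WT bleomycin, without overlap, and rose by a log2 fold change of 0.69 ± 0.09 (adjusted p = 2.7e-05). Itga3, the main epithelial receptor for Lama5 and Lama3 laminins and the most abundant of the class, was at 113, 109.9, 110.5 and 99.2 TPM in control, 118, 125, 130.3, 144 and 134 TPM in WT bleomycin and 131, 124, 122 and 112 TPM in CB1R KO bleomycin. Its rise in WT lungs was small, 0.23 ± 0.08 (adjusted p = 0.023), and was lost without control replicate 26 (adjusted p = 0.081) and without WT bleomycin replicate 4-B2 (adjusted p = 0.055). Itga6 had a log2 fold change of 0.16 ± 0.13 (adjusted p = 0.31).

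Of the 4 collagen-binding alpha subunits, 1 was called higher, 1 lower and 2 were not called. That is near the shares over all genes tested, 25.0% higher and 23.9% lower. Itga1, a collagen IV receptor of mesenchymal and endothelial cells, stood at 43.5, 39.4, 46.5 and 39.0 TPM in control, 35.0, 29.4, 26.1, 18.8 and 19.2 TPM in WT bleomycin and 36.2, 34.5, 30.9 and 28.2 TPM in CB1R KO bleomycin. Both bleomycin groups lay below control, and the log2 fold change was -0.76 ± 0.14 (adjusted p = 4.9e-04) in WT lungs. The 6 endothelial markers summed to 1674 to 2074 TPM in control and 1218 to 1442 TPM in WT bleomycin, with 5 of 6 called lower and 1 higher; their part in the result was not tested.

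Itga11, the collagen I receptor of fibroblasts, was low throughout, at 0.744 to 1.06 TPM in control and 1.21 to 2.09 TPM in WT bleomycin, and had a log2 fold change of 0.64 ± 0.23 (adjusted p = 0.031). That call was lost without control replicate 3 (adjusted p = 0.080), 24 (adjusted p = 0.070) or 26 (adjusted p = 0.059), and without WT bleomycin replicate 2 (adjusted p = 0.088), which held the highest level. Fibroblast markers summed to 486 to 613 TPM in control and 2033 to 2755 TPM in WT bleomycin, with 5 of 6 called higher; their part in the result was not tested. Itga2, a collagen receptor of epithelium and platelets, and Itga10, of cartilage and mesenchyme, had log2 fold changes of 0.11 ± 0.08 (adjusted p = 0.24) and -0.03 ± 0.18 (adjusted p = 0.89).

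All 8 RGD-binding integrins passed the test in WT bleomycin lungs: 6 rose and 2 fell, with a median log2 fold change of 0.70. Over all genes tested, 48.9% passed in this comparison, 25.0% higher and 23.9% lower. Itga5, the alpha subunit of the main fibronectin receptor, was at 26.3, 24.1, 27.9 and 22.3 TPM in control, 52.7, 65.8, 54.5, 61.0 and 60.0 TPM in WT bleomycin and 42.5, 39.8, 51.3 and 40.0 TPM in CB1R KO bleomycin. The 3 groups did not overlap and CB1R KO bleomycin lay between the others; the log2 fold change in WT lungs was 1.19 ± 0.09 (adjusted p = 3.3e-07), the lowest p among the members. Itgav, the alpha subunit shared by the TGF-beta-releasing integrins, was at 16.7, 17.3, 18.7 and 17.2 TPM in control, 34.4, 29.4, 37.8, 32.6 and 34.9 TPM in WT bleomycin and 28.4, 23.2, 33.5 and 29.3 TPM in CB1R KO bleomycin. All bleomycin libraries lay above all controls, and the log2 fold change in WT lungs was 0.76 ± 0.08 (adjusted p = 2.4e-06).

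The beta partners of Itgav all passed the test. Itgb6, the epithelial subunit that activates latent TGF-beta, was at 18.6, 8.56, 6.53 and 5.02 TPM in control, 37.3, 36.7, 31.8, 35.6 and 29.6 TPM in WT bleomycin and 30.4, 31.2, 36.9 and 34.0 TPM in CB1R KO bleomycin. Control replicate 3 stood above the other controls and still below every bleomycin library, and the log2 fold change was 1.77 ± 0.27 (adjusted p = 1.0e-04) in WT lungs. Markers of transitional alveolar and basal epithelium summed to 288.5 to 345.8 TPM in control and 470.7 to 616.8 TPM in WT bleomycin, with 2 of 6 called higher; their part in the result was not tested. Itgb8, which serves the same function in epithelium, fibroblasts and dendritic cells, was near the bottom of the range, at 0.211 to 0.622 TPM in control and 1.02 to 1.44 TPM in WT bleomycin, and rose by 1.73 ± 0.27 (adjusted p = 1.1e-04), or by 0.70 with limma on log2(TPM + 1).

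Itgb5, the vitronectin receptor subunit and the most abundant of the RGD-binding class, was at 93.2, 89.9, 88.8 and 82.8 TPM in control, 134, 150.3, 159, 127 and 137 TPM in WT bleomycin and 125, 108, 146 and 132 TPM in CB1R KO bleomycin, above control in all bleomycin libraries (log2 fold change 0.65 ± 0.10, adjusted p = 8.7e-05 in WT lungs). Itgb3, shared by the platelet fibrinogen receptor and the vitronectin receptor, rose by 0.65 ± 0.17 (adjusted p = 0.0060), a call lost when only libraries with lower-case sample titles were fitted (adjusted p = 0.065). The 5 beta subunits that can pair with Itgav, Itgb1 included, summed to 465.6 ± 14.8 TPM in control and 655.0 ± 38.2 TPM in WT bleomycin, of which Itgb6 made up 2.06% ± 1.25 and 5.22% ± 0.43 (SD).

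The members of the RGD-binding class that fell were alpha subunits. Itga8, the nephronectin receptor of alveolar fibroblasts and smooth muscle, stood at 93.7, 97.6, 116 and 101 TPM in control, 50.8, 46.5, 46.5, 28.8 and 41.8 TPM in WT bleomycin and 82.0, 71.2, 43.7 and 45.96 TPM in CB1R KO bleomycin. All bleomycin libraries lay below all controls, and the log2 fold change was -1.30 ± 0.18 (adjusted p = 3.5e-05) in WT lungs. Its share of the TPM of all alpha subunits outside the leukocyte class was 24.3% ± 1.5 in control and 9.89% ± 1.85 in WT bleomycin, while that of Itga5 was 5.98% ± 0.32 and 13.6% ± 1.2 (SD), in a pool of 419.8 ± 23.8 and 432.5 ± 8.6 TPM. Itga2b, the alpha subunit of the platelet fibrinogen receptor, was at 13.6, 10.7, 8.70 and 8.89 TPM in control, 4.58, 3.46, 3.33, 3.69 and 4.86 TPM in WT bleomycin and 5.15, 3.55, 3.18 and 3.84 TPM in CB1R KO bleomycin. The bleomycin groups lay wholly below control, at -1.42 ± 0.16 (adjusted p = 7.5e-06) in WT lungs. The 5 platelet and megakaryocyte markers, all detected, summed to 71.25 to 123.4 TPM in control, 32.69 to 56.5 TPM in WT bleomycin and 41.27 to 48.46 TPM in CB1R KO bleomycin, with 4 of 5 called lower in WT bleomycin; their part in the result was not tested.

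**Figure D3:**
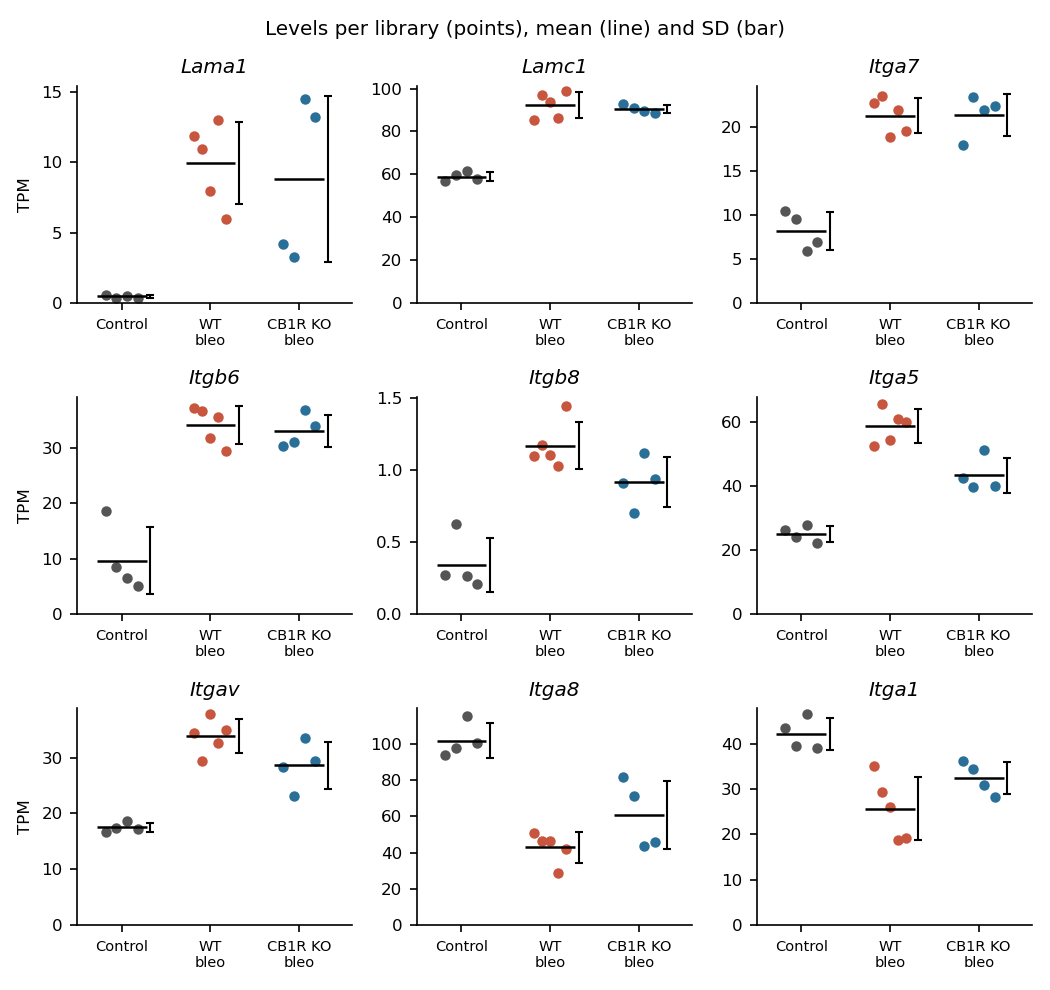
TPM (vertical axes) of 9 members in each library, with the group mean as a line and the SD as a bar; groups are control (n = 4), WT bleomycin (n = 5) and CB1R KO bleomycin (n = 4). Itga8 and Itga1 lie below control in both bleomycin groups and the other 7 members above it, and the CB1R KO points of Lama1 split into a pair at 3.24 and 4.15 TPM and a pair at 13.2 and 14.5 TPM.

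Itgb1, the beta subunit shared by the laminin-binding, collagen-binding and fibronectin-binding integrins, was the most abundant member. It stood at 349, 359, 365 and 348 TPM in control, 491, 492, 452, 431 and 429.9 TPM in WT bleomycin and 443, 434, 456 and 356 TPM in CB1R KO bleomycin. The WT bleomycin libraries lay above all controls, whereas CB1R KO library 11 lay within the control range, and the log2 fold change in WT lungs was 0.34 ± 0.07 (adjusted p = 0.0011). Itga9, a receptor for tenascin C and osteopontin, was at 30.6, 33.2, 34.3 and 29.4 TPM in control, 34.8, 38.8, 36.01, 34.1 and 35.3 TPM in WT bleomycin and 38.0, 37.7, 36.9 and 36.7 TPM in CB1R KO bleomycin, and did not pass the test (log2 fold change 0.11 ± 0.06, adjusted p = 0.13). Itga4, the VCAM-1 receptor subunit of leukocytes and mesenchyme, had a log2 fold change of -0.29 ± 0.13 (adjusted p = 0.079).

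The 7 leukocyte integrins moved in both directions in WT bleomycin lungs, with 3 higher, 2 lower and 2 not called. The shares over all genes tested were 25.0% higher and 23.9% lower. Itgb2, the beta subunit common to most of them, was at 102, 92.9, 71.6 and 73.1 TPM in control, 186, 201, 167, 140.2 and 124 TPM in WT bleomycin and 179.8, 165, 185 and 164 TPM in CB1R KO bleomycin. Its alpha partner Itgax, carried by alveolar macrophages and dendritic cells, was at 33.5, 46.5, 34.0 and 31.2 TPM in control, 90.8, 96.8, 83.6, 73.8 and 68.3 TPM in WT bleomycin and 97.8, 80.6, 96.3 and 81.3 TPM in CB1R KO bleomycin. For both genes all bleomycin libraries lay above all controls, with log2 fold changes of 0.92 ± 0.13 (adjusted p = 3.8e-05) and 1.14 ± 0.12 (adjusted p = 3.1e-06) in WT lungs. Itgae, the E-cadherin receptor subunit of intraepithelial T cells and a class of dendritic cells, was at 3.39, 3.49, 3.59 and 3.13 TPM in control, 8.37, 7.18, 8.06, 6.32 and 8.56 TPM in WT bleomycin and 8.91, 6.71, 8.99 and 8.15 TPM in CB1R KO bleomycin, again without overlap with control (1.14 ± 0.11, adjusted p = 1.9e-06).

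Itgal, the ICAM-1 receptor subunit of lymphocytes, went the other way. It stood at 51.8, 34.9, 35.4 and 35.2 TPM in control, 33.6, 29.8, 23.7, 23.6 and 22.6 TPM in WT bleomycin and 35.8, 34.3, 38.7 and 32.7 TPM in CB1R KO bleomycin. WT bleomycin lay below control and CB1R KO bleomycin overlapped control, and the log2 fold change was -0.59 ± 0.12 (adjusted p = 0.0011) in WT lungs. Itgb7, the mucosal homing subunit that pairs with Itga4 and Itgae, was at 56.6, 34.8, 29.4 and 25.3 TPM in control, 33.5, 21.9, 22.9, 17.2 and 19.9 TPM in WT bleomycin and 31.4, 24.9, 28.3 and 33.0 TPM in CB1R KO bleomycin; the groups overlapped, and the log2 fold change of -0.66 ± 0.18 passed the test (adjusted p = 0.0088). Itgam, of neutrophils and monocytes, and Itgad, of some macrophages, did not pass (0.34 ± 0.20, adjusted p = 0.18, and -0.39 ± 0.28, adjusted p = 0.27). Itgad, Itgam and Itgax are close relatives in sequence, so the division of reads among them is uncertain. Within the summed TPM of the 4 alpha partners of Itgb2, Itgal made up 41.0% ± 3.9 in control and 19.9% ± 1.6 in WT bleomycin, and Itgax 38.4% ± 7.9 and 61.9% ± 2.1 (SD).

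Markers of leukocyte types did not all move the same way. The 8 markers of monocyte-derived and interstitial macrophages summed to 333 to 411.2 TPM in control, 2846 to 3279 TPM in WT bleomycin and 1823 to 2910 TPM in CB1R KO bleomycin, with 8 of 8 called higher in WT bleomycin. Spp1, which is also listed among the integrin ligands below, was the largest part of these sums. Its means were 132.7, 1903 and 1407 TPM in the same order of groups. The median log2 fold change of the 8 markers in WT bleomycin was 1.99. T and NK cell markers summed to 49.85 to 77.39 TPM, 25.9 to 40.73 TPM and 39.9 to 47.47 TPM in the same order of groups, with 4 of 6 called lower in WT bleomycin, and the 5 B cell markers to 152 to 380.1 TPM, 59.14 to 167.2 TPM and 113.3 to 147.1 TPM, with 5 of 5 called lower. Control replicate 3 had the highest B cell, T and NK cell and platelet sums of all libraries and the highest Itgal and Itgb7. Markers of dendritic cells summed to 51.17 to 55.13 TPM, 29.42 to 53.17 TPM and 43.31 to 56.59 TPM, with 2 of 5 called higher and 1 lower. The 6 alveolar macrophage markers summed to 658 to 1992 TPM, 795.5 to 1280 TPM and 721.4 to 1347 TPM, with 0 of 6 called higher and 1 lower and a median log2 fold change of -0.06. Neutrophil markers summed to 297.6 to 1651 TPM, 192.2 to 393.5 TPM and 233.8 to 518.1 TPM, with 3 of the 4 tested called lower. No marker in these lists was at 0 in every library, and the part of these cell types in the results on leukocyte integrins was not tested.

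**Figure D4:**
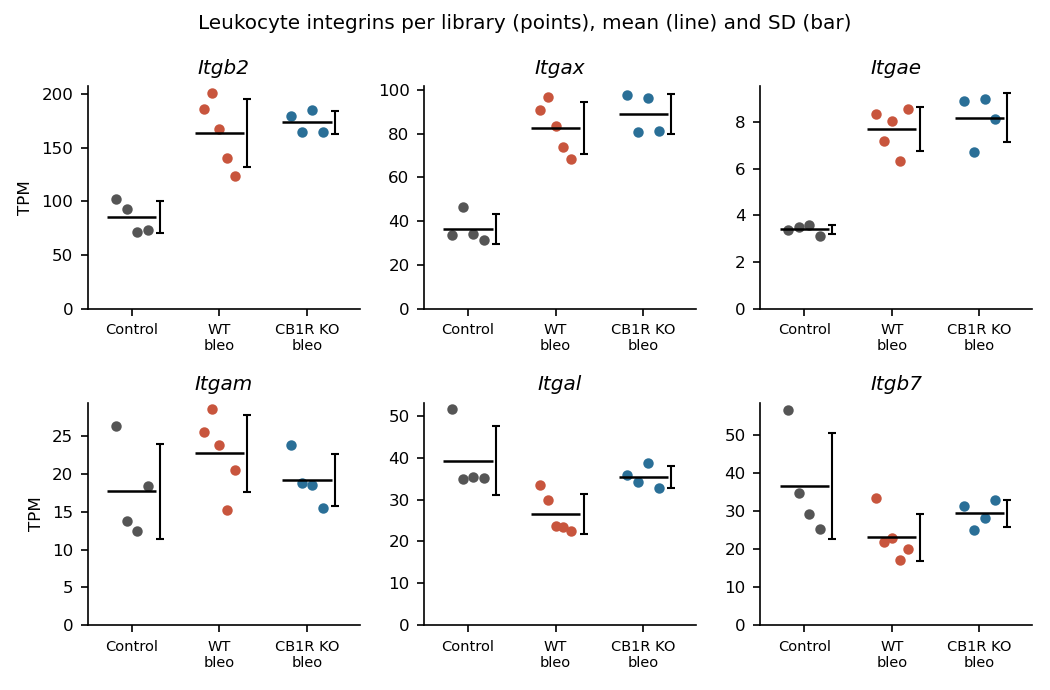
TPM (vertical axes) of 6 leukocyte integrins in each library, with the group mean as a line and the SD as a bar; groups are control (n = 4), WT bleomycin (n = 5) and CB1R KO bleomycin (n = 4). Itgb2, Itgax and Itgae lie above control in all bleomycin libraries, while control replicate 3 is the highest point for Itgal, at 51.8 TPM, and for Itgb7, at 56.6 TPM.

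The genes around the members were read from 4 lists. In WT bleomycin against control, 25.0% of all genes tested were called higher and 23.9% lower. Of 12 other basement membrane genes, 10 rose, 1 fell and 1 did not pass in WT bleomycin lungs, with a median log2 fold change of 0.61 against -0.01 for all genes. The collagen IV chains Col4a1 and Col4a2, which form the network that laminins join, rose by 1.57 and 1.23 (adjusted p = 4.5e-08 and 6.9e-08), whereas Col4a6 fell by 0.52 on the log2 scale (adjusted p = 0.0021). Of 17 integrin ligands other than laminins and collagens, 15 were tested, 9 rose and 3 fell, with a median of 0.55. Osteopontin (Spp1) and tenascin C (Tnc), ligands of Itgav and Itga9 integrins, rose by 3.81 (adjusted p = 2.2e-08) and 4.43 (adjusted p = 4.3e-08), whereas vitronectin (Vtn) fell by 1.25 on the log2 scale (adjusted p = 1.9e-06) and the endothelial leukocyte ligand Icam2 by 0.69 (adjusted p = 2.2e-05).

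The adaptors and signalling genes on the inner side of integrins did not follow the same direction, with 5 of 23 higher, 9 lower and 9 not called, and a median log2 fold change of -0.10. Of all genes tested, 25.0% were called higher and 23.9% lower. The actin crosslinker Actn1 and the scaffold Bcar1 rose by 0.90 (adjusted p = 1.2e-05) and 0.36 (adjusted p = 2.7e-04), and the adaptors Lims2 and Tns1 fell by 1.26 (adjusted p = 3.8e-05) and 1.12 (adjusted p = 4.7e-05) on the log2 scale. Of 6 laminin receptors other than integrins, Dag1, the dystroglycan gene, rose (0.46, adjusted p = 6.4e-05), the sarcoglycans Sgce and Sgca fell by 0.37 (adjusted p = 0.0022) and 1.22 (adjusted p = 0.018) on the log2 scale, and 3 did not pass.

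Between CB1R KO and WT lungs, both given bleomycin, 1 member was lower in CB1R KO, none was called higher, and 35 did not pass the test. Over all genes tested 0.979% were called, 0.359% higher and 0.62% lower. At an unadjusted p under 0.05 there were 8 members, where 17.0% of all genes passed. DESeq2 on all libraries called 0 members higher and 3 lower, or 1 higher and 3 lower when fitted on these groups alone. Either DESeq2 fit called 644 of all genes, where the fit as reported called 150. The members' median log2 fold change was -0.06, against 0.00 for all genes. The WT bleomycin libraries of this comparison are those of the comparison with control.

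The member that passed was Itga5. Its normalized level was 148, 187, 161, 186 and 178 CPM in WT bleomycin and 119, 114, 146 and 114 CPM in CB1R KO bleomycin, without overlap, and 68.7 to 83.8 CPM in control. The log2 fold change was -0.48 ± 0.09 (adjusted p = 0.028), 0.715 times the WT bleomycin level. The sign held in 26 of 26 alternatives, between -0.57 and -0.43, and the threshold was passed in 15. The call was lost without WT bleomycin replicate 2 (adjusted p = 0.062), 5 (adjusted p = 0.057), 4-B2 (adjusted p = 0.074) or 7 (adjusted p = 0.073), and without CB1R KO replicate 8 (adjusted p = 0.10), 9 (adjusted p = 0.11) or 11 (adjusted p = 0.084). It was also lost within libraries with lower-case sample titles (adjusted p = 0.21) and with title style as a term (adjusted p = 0.084). All CB1R KO titles are lower-case, whereas those of WT bleomycin replicates 4-B2 and 7 and control replicate 26 hold capitals. With limma on log2 TPM it was lost at a pseudocount of 0.1 (adjusted p = 0.052) and without the filter (adjusted p = 0.078). Markers of monocyte-derived and interstitial macrophages summed to 1823 to 2910 TPM in CB1R KO bleomycin against 2846 to 3279 TPM in WT bleomycin, with 0 of 8 called, 3 at an unadjusted p under 0.05 and a median log2 fold change of -0.26. Spp1 was the largest part of these sums, with means of 1407 and 1903 TPM. Fibroblast markers summed to 1538 to 2289 TPM against 2033 to 2755 TPM, with 0 of 6 called, 4 at an unadjusted p under 0.05 and a median of -0.45. The part of either in the result was not tested.

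The members next in order of p missed the threshold. Itgb4 was at 42.8, 46.6, 49.1, 60.4 and 47.5 CPM in WT bleomycin and 37.9, 38.1, 42.1 and 37.1 CPM in CB1R KO bleomycin (log2 fold change -0.34 ± 0.09, adjusted p = 0.076). Lama5 was at 412, 417, 498, 450.1 and 488 CPM in WT bleomycin and 393, 389, 372 and 376 CPM in CB1R KO bleomycin (-0.24 ± 0.07, adjusted p = 0.084). Neither gene overlapped between the groups, and both were called by DESeq2. In the other direction, Itgal was at 107, 95.2, 80.1, 80.0 and 73.2 CPM in WT bleomycin and 111, 110.1, 123 and 109 CPM in CB1R KO bleomycin, also without overlap (0.38 ± 0.12, adjusted p = 0.14). These 4 members, 1 above and 3 below, were all that did not overlap, where 5.6% of all genes did not, 2.5% above and 3.1% below.

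**Figure D5:**
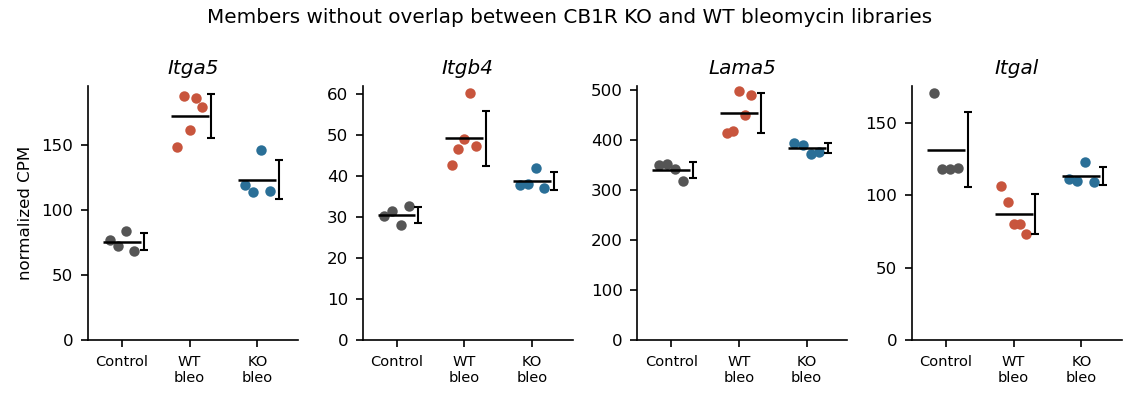
Normalized CPM (vertical axes, from 0) of the 4 members whose CB1R KO bleomycin (n = 4) and WT bleomycin (n = 5) libraries did not overlap, with control (n = 4) beside them; lines are means and bars SD. The highest CB1R KO point of Itga5, at 146 CPM, lies just below the lowest WT bleomycin point, at 148 CPM.

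Lama3 and Itga8 had the next lowest p among members with a higher level in CB1R KO, and in both the CB1R KO libraries were spread out. Lama3 was at 42.5, 38.1, 41.3 and 35.4 TPM in control, 53.3, 43.6, 48.9, 45.3 and 41.9 TPM in WT bleomycin and 67.2, 64.5, 45.9 and 46.4 TPM in CB1R KO bleomycin, and its log2 fold change between the bleomycin groups was 0.31 ± 0.12 (adjusted p = 0.20). That of Itga8 was 0.45 ± 0.18 (adjusted p = 0.21). In both genes CB1R KO libraries 8 and 9 lay above all WT bleomycin libraries while 10 and 11 lay among them. Fibroblast markers summed to 1605, 1538, 2289 and 2051 TPM in CB1R KO libraries 8, 9, 10 and 11 and to 2033 to 2755 TPM in WT bleomycin. Of these markers, 0 of 6 were called and 4 had an unadjusted p under 0.05. Type II markers summed to 40570, 44430, 31580 and 44230 TPM against 23750 to 30320 TPM, with 2 of 6 called higher. The fibroblast sums were lower in libraries 8 and 9 than in 10 and 11. The type II sums did not divide that way, with library 10 lowest and library 11 near library 9. The part of either marker set in the members' values was not tested.

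Around the members, the list genes called between the bleomycin groups were all lower in CB1R KO lungs. They were fibronectin, Fn1, the ligand of Itga5 (-0.86, adjusted p = 0.039), and the platelet and matrix glycoprotein Thbs1 (-0.75, adjusted p = 0.027) among 15 ligands tested, Col18a1 of the basement membrane (-0.43, adjusted p = 0.048) among 12, and Actn1 (-0.52, adjusted p = 0.037) among 23 adaptors. None of the 6 other laminin receptors was called, with 1 at an unadjusted p under 0.05. Over all genes tested 0.979% were called. That total was 1 gene without CB1R KO replicate 9 and 3 genes without replicate 11. Without CB1R KO replicate 9, at most 1 of the calls of Fn1, Thbs1, Col18a1 and Actn1 can therefore have held. Without replicate 11 they did not all hold.

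In CB1R KO bleomycin lungs set against the same control libraries, 16 members were higher, 4 lower and 16 not called, where 35.4% of all genes were called (19.0% higher and 16.3% lower) and the members' median log2 fold change was 0.24 against -0.01. The groups did not overlap for 21 members, 17 above and 4 below, against 33.5% of all genes (17.7% above and 15.8% below). Since both comparisons use the same 4 controls, values are given side by side only. Itga7 was at 1.32 in WT and 1.31 in CB1R KO bleomycin lungs, Itgae at 1.14 and 1.19, Itgax at 1.14 and 1.21, and Itgb2 at 0.92 and 0.97 (log2 fold changes against control). Lower in CB1R KO were the values of Itga5 (1.19 and 0.71), Itgb4 (0.69 and 0.34), Itgb8 (1.73 and 1.34), Itgav (0.76 and 0.57) and Itgb5 (0.65 and 0.44), of which the direct comparison of the bleomycin groups called Itga5 alone.

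The falls of Itga8 (-0.85 ± 0.19, adjusted p = 0.0031) and Itga2b (-1.49 ± 0.17, adjusted p = 2.2e-05) also passed in CB1R KO bleomycin lungs. Lama3 was called there and not in WT lungs (0.52 ± 0.12, adjusted p = 0.0052), and Itgad likewise (-0.91 ± 0.30, adjusted p = 0.029), whereas Lama5 (0.17 ± 0.07, adjusted p = 0.067), Itgb1 (0.18 ± 0.07, adjusted p = 0.079) and Itgb3 (0.38 ± 0.18, adjusted p = 0.11) did not pass. Of the 26 alternatives, Lama5 passed in 7, Itgb1 in 5 and Itgb3 in 2. None of these genes passed the test between the bleomycin groups themselves. The call of Itga1 (-0.46 ± 0.15, adjusted p = 0.027) was lost without control replicate 3 (adjusted p = 0.051) or 24 (adjusted p = 0.075) and without CB1R KO replicate 10 (adjusted p = 0.071) or 11 (adjusted p = 0.088). Itgad was low, at 1.56 to 2.56 CPM in control and 0.84 to 1.68 CPM in CB1R KO bleomycin, and these groups overlapped. The call of Itgad was lost without control replicate 3 (adjusted p = 0.080) or 24 (adjusted p = 0.083) and without CB1R KO replicate 8 (adjusted p = 0.069), 9 (adjusted p = 0.071) or 11 (adjusted p = 0.073).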

How the data were processed

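The authors sequenced lung RNA in 13 libraries, each counted as a separate mouse. The labels number them, with the number 4 given to 2 WT bleomycin libraries (4 and 4-B2), each with its own entry and different measurements in the study's lung function table; if both came from 1 mouse, p-values would be too small. Per the labels and the study's methods, reads were split with bcl2fastq 2.17 and quantified with Kallisto on Ensembl release 105 (GRCm39), and protein-coding transcripts were summed per gene. The deposited tables hold estimated counts, 64.8% of them not whole (tolerance 0.001), and TPM, whose sums were 82.2% to 85.4% of what TPM over all transcripts add up to. The 13 single-sample tables held the same values, and 1 TPM column that matched no sample was not used.

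Counts were rounded to whole numbers, filtered with filterByExpr (15315 genes tested), scaled by TMM and fitted with edgeR 4.0.16 (R 4.3.3) by the quasi-likelihood test, all 13 libraries in 3 groups, no covariates, and Benjamini-Hochberg adjustment over all genes tested, called at an adjusted p under 0.05. CPM are TMM-normalized. SE is the absolute log2 fold change over the square root of F, with a median of 0.12 over the members in the comparison of CB1R KO with WT bleomycin. DESeq2 1.42.0 and limma 3.58.1 on log2(TPM + pseudocount) served as alternatives, among 26 in all. The procedure was tested on simulated data. Tables and plots used Python 3.11.15, pandas 2.3.3, numpy 2.4.6 and matplotlib 3.10.9. Depth was 14615904 to 53463884 estimated counts per library.

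The members and gene lists were chosen with earlier results of these data known. Values in every library are given for the 6 members with the lowest p in each direction in WT bleomycin against control, the 3 in each direction between the bleomycin groups, and the highest TPM of each class; from other lists at most 2 genes in each direction are named. Lama1 and Itgb6 were added after their values were seen. Promoter windows were matched by symbol from RefSeq (GRCm38.p6). A few other symbols of these families were not analysed here.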

Additional observations from a re-analysis of the deposited data

Results flagged for a closer look

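Of 108 sets of values (36 members in 3 groups, log2 CPM), 7 held a library far from the others of its group by Dixon's ratio, the gap to the nearest library over the range of the group; chance gives about 1 in 20. Itgal in control replicate 3 had a ratio of 0.98 (51.75 TPM against 34.9 to 35.38 TPM in the other controls), and Itgal in CB1R KO replicate 10 a ratio of 0.85 (38.71 TPM against 32.68 to 35.81 TPM). Itga3 in control replicate 26 had a ratio of 0.961 (99.24 TPM against 109.9 to 113.1 TPM). Itga11 in WT bleomycin replicate 2 had a ratio of 0.922 (2.093 TPM against 1.214 to 1.261 TPM), and Itga8 in WT bleomycin replicate 4-B2 a ratio of 0.766 (28.78 TPM against 41.75 to 50.75 TPM). Itgb8 stood out in control replicate 21, with a ratio of 0.83 (0.6224 TPM against 0.211 to 0.2698 TPM), and in WT bleomycin replicate 7, with a ratio of 0.771 (1.441 TPM against 1.025 to 1.173 TPM).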

How the results depend on the processing

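No call of a member changed sign under any of the 26 alternatives. In WT bleomycin against control, 21 of 26 calls held under all of them, and Itga11, Itga3, Itgb3, Itgb7 and Lamb2 were lost under at least 1, of which Itga11 (adjusted p = 0.072), Itga3 (0.29), Itgb3 (0.065) and Lamb2 (0.20) within lower-case titles alone. Of the members not called there, Itga9 passed in 4 alternatives, Itga4 in 1 (without WT bleomycin replicate 4) and Itgam in 1 (without control replicate 3). In CB1R KO bleomycin against control, 18 of 20 calls held, Lama5 passed in 7 alternatives (both DESeq2 fits, edgeR on the 2 groups, the 3 limma fits on TPM and without WT bleomycin replicate 5), Itgb1 in 5, Itga9 in 3 (limma on TPM) and Itgb3 in 2 (without control replicate 3 or CB1R KO replicate 8), and 4 members were lower in the fit as reported but 2 (Itga2b and Itga8) with limma on log2 TPM at either pseudocount or without the filter; leaving out 1 library gave 2 to 4, with 2 without control replicates 3 or 24 or CB1R KO replicate 11. Between CB1R KO and WT bleomycin, DESeq2 on the 2 groups called 1 member higher (Itgal, against 0), and DESeq2 on all libraries or on the 2 groups called 3 lower (Itga5, Itgb4 and Lama5, against 1). The count of lower members there was 0 with limma on log2 TPM at a pseudocount of 0.1 or without the filter, with the style of the sample titles (capital or lower-case) as a term, and within lower-case titles alone; leaving out 1 library gave 0 to 2. It was 2 (Itga5 and Itgb4) without WT bleomycin replicate 4 or CB1R KO replicate 10. Over all genes, 150 were called between these groups, 644 by DESeq2, 653 without CB1R KO replicate 10 and 1 without CB1R KO replicate 9. The cause was not tested. No scaling moved the median of all genes by as much as 0.1. No paired analysis was possible because the groups share no replicate numbers.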
